A study of Mus musculus with 4 samples.

Results

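The dystrophin-glycoprotein complex was followed through 8 of its genes, *Dmd*, *Utrn*, *Dag1*, *Sgca*, *Sgcb*, *Sgcd*, *Dtna* and *Sntb1*, out of 24637 genes in the table. They were taken by gene symbol, from a list drawn up with earlier results of these data known, and each was found once. Messenger RNA had been sequenced from mouse embryonic stem cell (ESC) lines differentiated towards cardiomyocytes, with 4 libraries in all, 2 labelled WT and 2 labelled Taf4a-/- and called so below. The cells were grown for 5 days as embryoid bodies in medium rich in serum and then for 9 days on gelatin. The Taf4a-/- lines carry a null allele of *Taf4a*, a subunit gene of the general transcription factor TFIID, from which internal exons were deleted. All the lines were derived from blastocysts of heterozygous crosses and were kept on feeder cells with LIF before differentiation, so both genotypes share that history. By the paper's methods, replicates came from 2 independent lines of each genotype. The labels name no line, so each library is taken here as a separate line, and each genotype would be represented by 2 lines only.

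Dystrophin is a long rod-shaped protein that ties the actin cytoskeleton of muscle cells to the plasma membrane, and utrophin is its close relative, present in many cell types. Both bind dystroglycan, whose outer part holds laminin in the basement membrane when it carries the proper sugar chains. The sarcoglycans sit beside dystroglycan in the membrane, while the dystrobrevins and syntrophins bind dystrophin on the inner side and hold signalling proteins there. Loss of several of these proteins is known to cause muscular dystrophy and cardiomyopathy.

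Promoter sequences are shown for dystrophin, because its gene has more than one start, and for the 3 sarcoglycans, because 2 of them were called lower and the other was not. They are the 250 bases before each start in RefSeq, on build GRCm38.p6, in the direction of transcription. Windows were taken for 6 of the 8 members. Any window of *Dtna* was left out of the search, and none was found for *Sntb1*. The upstream window of *Dmd* is chrX:82948620-82948869 (plus strand) and the downstream one chrX:85048045-85048294 (plus strand). Those of *Sgca*, chr11:94976328-94976577, *Sgcb*, chr5:73647738-73647987, and *Sgcd*, chr11:47379326-47379575, are on the minus strand. Capitals mark matches on either strand to the 7 motifs searched. These were the TATA box TATAAA, the E-box CANNTG, the GATA site AGATAA, the CCAAT box, the GC box GGGCGG, the CArG box and the MEF2 site.
Dmd upstream window: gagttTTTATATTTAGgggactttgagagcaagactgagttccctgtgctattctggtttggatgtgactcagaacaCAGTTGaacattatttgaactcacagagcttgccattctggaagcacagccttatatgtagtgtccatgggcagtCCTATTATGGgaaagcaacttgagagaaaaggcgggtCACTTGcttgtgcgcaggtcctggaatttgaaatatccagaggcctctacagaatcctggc
Dmd downstream window: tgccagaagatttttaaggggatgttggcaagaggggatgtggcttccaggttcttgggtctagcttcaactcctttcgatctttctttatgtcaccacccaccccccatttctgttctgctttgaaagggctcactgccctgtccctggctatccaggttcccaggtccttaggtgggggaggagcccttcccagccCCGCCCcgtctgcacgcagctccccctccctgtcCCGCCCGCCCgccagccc
Sgca window: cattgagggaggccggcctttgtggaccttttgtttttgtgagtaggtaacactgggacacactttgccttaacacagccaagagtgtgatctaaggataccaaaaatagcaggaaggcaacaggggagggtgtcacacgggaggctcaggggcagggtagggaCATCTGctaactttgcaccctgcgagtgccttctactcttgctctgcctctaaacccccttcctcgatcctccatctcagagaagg
Sgcb window: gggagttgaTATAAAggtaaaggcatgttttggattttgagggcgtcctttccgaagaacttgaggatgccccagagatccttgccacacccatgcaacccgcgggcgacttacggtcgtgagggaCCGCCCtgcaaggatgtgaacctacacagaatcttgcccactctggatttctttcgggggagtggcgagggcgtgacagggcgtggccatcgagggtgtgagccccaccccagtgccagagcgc
Sgcd window: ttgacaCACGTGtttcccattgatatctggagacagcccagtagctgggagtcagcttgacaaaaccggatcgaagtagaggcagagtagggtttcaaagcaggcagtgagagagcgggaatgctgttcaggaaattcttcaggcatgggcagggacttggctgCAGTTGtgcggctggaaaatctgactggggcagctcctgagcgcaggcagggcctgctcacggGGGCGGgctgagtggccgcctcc

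The windows of *Dmd* differed in the letters they hold. The upstream one had a CArG box, the site of serum response factor, from position -98 to -89 before the start, a MEF2 site from -244 to -235 that overlaps TATAAA letters, and 2 E-boxes. A CArG box was present in 1.47% and a MEF2 site in 2.92% of the 32851 windows of all genes. The downstream window had neither of them but held 3 GC boxes, the last 2 of which overlap and end at position -9, and its GC content was 60.0% against 45.2% upstream and a median of 52.4% over all windows. GC boxes were found in 32.7% of all windows. The *Sgca* window held 1 E-box alone, the *Sgcb* window a GC box and TATAAA letters far from the start, and the *Sgcd* window 2 E-boxes and 1 GC box. E-box letters occurred in 66.2% of all windows and TATAAA in 12.4%, so that such matches are common by their letters. These matches describe sequence only, and no binding was measured here.

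Expression is given as normalized counts, that is, reads counted on a gene divided by 1 size factor per library. Between 21732746 and 27733034 reads fell on genes in each library, and 1 read was worth 0.877 to 1.11 normalized counts. A gene was called changed at a Benjamini-Hochberg adjusted p under 0.05 in limma, fitted to log2(normalized count + 1) over 16926 genes, those whose mean reached 10. Fold changes are on this log2 scale, which makes the change of genes counted at a few reads look smaller than it is. Of all genes tested, 17.3% (2928 genes) were called lower in Taf4a-/- libraries and 11.3% (1906 genes) were called higher. Quantile normalization turned this balance, with 2460 lower and 2624 higher. The *Taf4a* count itself was 889 and 678 in the WT libraries and 1722 and 1799 in Taf4a-/- libraries. A count over the whole gene does not separate the deleted exons, so it checks nothing about the labels, and directions below are those of the labels.

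Against this background, 3 of the 8 members were called lower in Taf4a-/- libraries, *Sgca*, *Sgcd* and *Dtna*, and 0 were called higher. Dystrophin, utrophin, dystroglycan, β-sarcoglycan and β1-syntrophin did not pass the test. The members' log2 fold changes ran from -2.46 to 0.25 with a median of -0.55, against a median of -0.01 over all genes tested. All 8 passed the filter on low values, but *Sgca* and *Sgcd* did so only through the WT libraries and had to differ to be tested, so the count and the median that include them support nothing about the complex. With a mean of at least 50 required, neither was tested, 1 member (*Dtna*) was called lower and the median was -0.21. With 2 libraries a genotype the calls were sensitive to single lines: leaving out WT replicate 2, Taf4a-/- replicate 1 or Taf4a-/- replicate 2 left 0 members called, and leaving out WT replicate 1 left 4, with *Dag1* added.

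**Figure D1:**
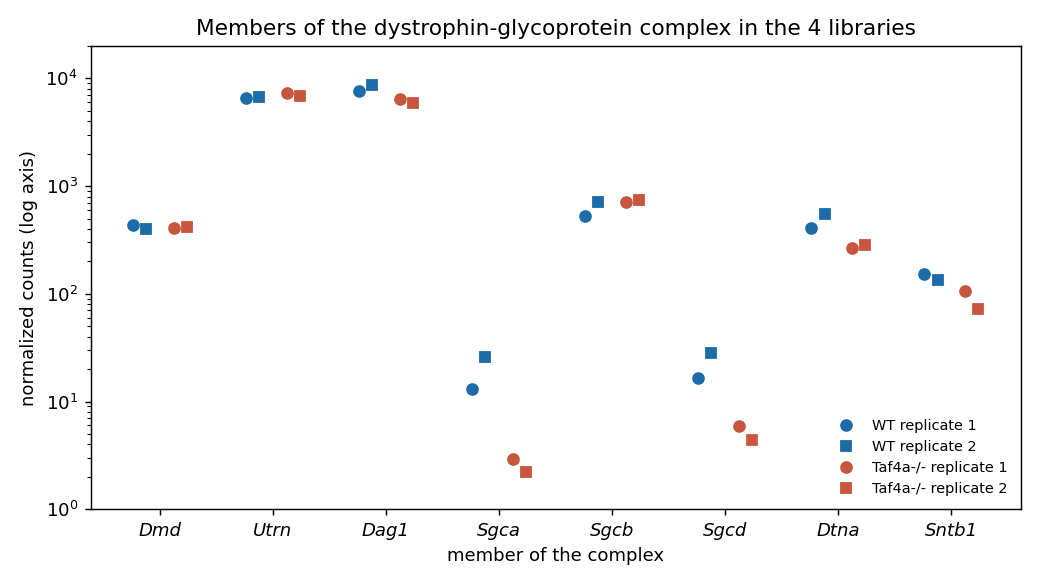
Normalized counts (log axis) of the 8 members in each library, blue for WT and red for Taf4a-/-, circles for replicate 1 and squares for replicate 2. The genotypes lie farthest apart for *Sgca* (13.2 and 26.0 in WT against 2.94 and 2.21 in Taf4a-/- libraries), which was tested only through WT. With so few libraries a genotype, values that do not overlap are no result by themselves.

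Markers of several cell types differed between the genotypes as well, and bulk RNA cannot tell fewer cells of a type from less RNA per cell. All 8 of 8 cardiomyocyte markers were called lower (median log2 fold change -3.37), with summed normalized counts of 13805 to 17206 in WT and 1411 to 1457 in Taf4a-/- libraries, and none of them was at 0. Of smooth muscle markers 2 of 5 were lower, with sums of 29922 to 53617 and 19733 to 20615, and of fibroblast markers 5 of 6, with sums of 392047 to 546077 and 39296 to 46230. All 5 macrophage and all 5 visceral endoderm or liver markers were lower, *C1qa* and *Alb* reaching 0 in both Taf4a-/- libraries. Of these, *C1qa*, *C1qb*, *Cx3cr1*, *Ptprc* and *Alb* passed the filter only through WT libraries and had to differ to be tested, so their calls add nothing to these counts. The sums of the macrophage markers were 6751 to 7906 against 38.2 to 66.4. Those of the visceral endoderm or liver markers were 64392 to 79875 against 483 to 552. All 6 pluripotency markers were higher, with sums of 1346 to 3515 in WT and 12470 to 14380 in Taf4a-/- libraries. None of the 5 endothelial or the 4 neural markers tested was called, and their sums overlapped between genotypes for the former (6628 to 9686 against 5491 to 9061) but not the latter (3730 to 4483 against 4794 to 6362). Of 5 skeletal muscle markers only *Tnnt3* could be tested, without a call (sums 149.6 to 213.9 against 113.9 to 115.5), and *Ckm* had 0 reads in both WT libraries. The part of these shifts in the members' values was not tested.

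Dystrophin itself, *Dmd* (ENSMUSG00000045103), was counted at 398 to 438 normalized counts in every library. The gene spans chrX:80194209-82451480 on the plus strand of NCBIM37, over 2257272 bases. *Dmd* normalized counts were 438 and 398 in the WT libraries and 409 and 420 in Taf4a-/- libraries, and the genotypes overlapped. The *Dmd* log2 fold change was -0.01 ± 0.16 (SE, n = 2 and 2 libraries), with a 95% interval of -0.39 to 0.37 and an adjusted p of 0.967 in limma. Its sign turned positive under equal totals (0.05) and quantile normalization (0.16), and without WT replicate 1 (0.06) or Taf4a-/- replicate 1 (0.009), with adjusted p between 0.464 and 0.989 over all alternatives. *Dmd* is X-linked, and *Xist*, the RNA that coats an inactive X chromosome, stood at 6.14 and 7.27 normalized counts in WT against 217 and 6470 in Taf4a-/- libraries. The *Dmd* values of the last pair were 409 and 420, and the part of X inactivation in them was not tested.

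The count on *Dmd* pools transcripts that encode different proteins. The annotation lists 5 coding transcripts, the longest with 79 exons and 14910 bases from a start at chrX:80194242. Another, of 5802 bases, starts at chrX:80872600, and 3 start at chrX:82293752 with 4438 or 1858 bases. The first and last of these starts lie 2099510 bases apart on NCBIM37, and the RefSeq windows printed above lie 2099425 bases apart on GRCm38.p6. The long form is the dystrophin of muscle, while the short one from the downstream start lacks the actin-binding end and is known from many tissues. Gene counts do not tell how much of the level came from either, so a shift between them would not appear in these values.

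Utrophin, *Utrn* (ENSMUSG00000019820, chr10:12101986-12589163, minus strand), was the more abundant of the pair. Its normalized counts were 6589 and 6692 in WT and 7388 and 6929 in Taf4a-/- libraries, both above both WT values. The *Utrn* log2 fold change was 0.11 ± 0.11 (SE), with a 95% interval of -0.17 to 0.38 and an adjusted p of 0.506 in limma, so the difference was not past the spread the test allows. Per kilobase of exon, the ratio of *Utrn* to *Dmd* was 27.0 and 30.3 in WT and 32.5 and 29.7 in Taf4a-/- libraries, and the genotypes overlapped. The exact two-sided permutation test on the log2 ratio gave p = 0.667, and 2 against 2 libraries cannot give less than 0.333. By this length, utrophin RNA made up 96.4% to 97.0% of the sum of both in all 4 libraries. With the longest transcript as the length the mean ratio was 19.2 in WT and 20.8 in Taf4a-/- libraries. Both lengths exceed the short *Dmd* transcripts of 4438 or 1858 bases. The ratio and the share would be lower if these gave much of the *Dmd* count.

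Dystroglycan, the laminin receptor at the centre of the complex, had the highest level per kilobase among the members. *Dag1* (ENSMUSG00000039952, chr9:108108286-108166255, minus strand) stood at 7667 and 8766 normalized counts in WT and at 6398 and 5956 in Taf4a-/- libraries. All the values of the latter lay below those of WT, yet the *Dag1* log2 fold change of -0.41 ± 0.13 (SE) had an adjusted p of 0.0571 in limma and was not called. Its 95% interval was -0.72 to -0.10. Without WT replicate 1 the log2 fold change was -0.51 and the adjusted p 0.0310, while the alternatives together spanned adjusted p of 0.0310 to 0.376.

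Per kilobase of exon, the order of the members in WT was *Dag1* (1801), *Utrn* (502), *Sgcb* (166), *Dtna* (50.8), *Sntb1* (49.97), *Dmd* (17.6), *Sgca* (11.3) and *Sgcd* (2.71), in normalized counts per kilobase. Only *Dtna* and *Sntb1* overlapped as neighbours. In Taf4a-/- libraries the same order held except that *Sntb1* (31.1) and *Dtna* (29.1), again overlapping, changed places. The ends of the scale there were *Dag1* at 1354 and *Sgcd* at 0.623. The swap depended on the length used. With the longest transcript as length, 8 members kept their rank in WT but 6 in Taf4a-/- libraries, where *Dtna* again stood above *Sntb1*. A gene's exons were merged over its transcripts for these lengths, so genes with many alternative exons appear lower than their transcripts are. The place of *Dmd* in the order also depends on which of its transcripts were present.

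Of the 4 sarcoglycan genes that could be tested, *Sgca*, *Sgcd* and *Sgce* were called lower and *Sgcb* was not called. *Sgca* and *Sgcd* passed the filter only through WT libraries and had to differ to be tested, so their calls support nothing by themselves. α-Sarcoglycan, *Sgca* (ENSMUSG00000001508, chr11:94824105-94837641, minus strand), is the subunit typical of striated muscle. It stood at 13.2 and 26.0 normalized counts in WT and at 2.94 and 2.21 in Taf4a-/- libraries, which rest on 15, 25, 3 and 2 reads. *Sgca* was therefore scarce in all 4 libraries and near the limit of counting in the last pair. The *Sgca* log2 fold change was -2.46 ± 0.58 (SE), with an adjusted p of 0.0275 in limma, and -1.20 with a pseudocount of 10 in place of 1 (adjusted p 0.0361). From its 40 and 5 reads, the normalized level in WT was 7.33 times that in Taf4a-/- libraries, with a 95% interval of 2.89 to 23.8 that covers counting error only. The adjusted p of *Sgca* rose to 0.0825 without WT replicate 2, 0.0524 without Taf4a-/- replicate 1 and 0.0745 without Taf4a-/- replicate 2, and spanned 0.0277 to 0.0825 over all alternatives.

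δ-Sarcoglycan, *Sgcd* (ENSMUSG00000020354, chr11:46709755-47802471, minus strand), which forms a core with β-sarcoglycan, was likewise scarce and tested only through WT. Normalized counts of *Sgcd* were 16.7 and 28.1 in WT and 5.87 and 4.42 in Taf4a-/- libraries, without overlap. The *Sgcd* log2 fold change was -1.89 ± 0.52 (SE) with an adjusted p of 0.0409 in limma, and -1.07 with a pseudocount of 10 (adjusted p 0.0421). Its 46 reads in WT and 10 in Taf4a-/- libraries gave a ratio of 4.21 between normalized levels (95% counting interval 2.10 to 9.36). This was the least secure of the calls: the adjusted p of *Sgcd* was 0.117 without WT replicate 2, 0.0884 without Taf4a-/- replicate 1, 0.139 without Taf4a-/- replicate 2, 0.0562 with no filter, 0.0513 after quantile normalization and 0.0645 with the replicate block, in a range of 0.0338 to 0.139 over all alternatives.

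β-Sarcoglycan, *Sgcb* (ENSMUSG00000029156, chr5:74023988-74038983, minus strand), the partner of *Sgcd* in that core and a protein also made outside muscle, had a higher level per kilobase of exon than either, 166 in WT against 11.3 for *Sgca* and 2.71 for *Sgcd*. Its normalized counts were 525 and 716 in WT and 713 and 748 in Taf4a-/- libraries, and the genotypes overlapped. The *Sgcb* log2 fold change was 0.25 ± 0.18 (SE), with a 95% interval of -0.20 to 0.70 and an adjusted p of 0.341 in limma. ζ-Sarcoglycan, *Sgcz*, had 6 reads in WT and 3 in Taf4a-/- libraries, too few to be tested.

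ε-Sarcoglycan, *Sgce*, a broadly expressed relative of *Sgca* that was not among the 8 members, made the largest part of the sarcoglycan RNA in WT and had the strongest fall of the subunits tested. *Sgce* normalized counts were 2194 and 3255 in WT and 285 and 334 in Taf4a-/- libraries. The *Sgce* log2 fold change was -3.11 ± 0.21 (SE), an 8.64-fold lower level, with an adjusted p of 0.00109 in limma. *Sgce* stayed called under all 13 alternatives, with adjusted p of 2.1e-05 to 0.0345.

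The makeup of the sarcoglycan RNA differed between genotypes. Summed over 5 sarcoglycan genes, it was 862 and 1266 normalized counts per kilobase of exon in WT and 286 and 309.9 in Taf4a-/- libraries. *Sgce* made up 82.5% and 83.3% of that sum in WT and 32.2% and 34.9% in Taf4a-/- libraries, while the share of *Sgcb* was 16.3% and 15.1% against 66.6% and 64.5%. The level of *Sgcb* itself overlapped between genotypes and was not called, so its larger share goes with the lower sum. *Sgca* held 0.879% and 1.18% in WT and 0.591% and 0.411% in the others, and *Sgcd* 0.234% and 0.268% against 0.248% and 0.173%. The ratio of *Sgce* to *Sgcb* per kilobase was 5.06 and 5.51 in WT and 0.484 and 0.541 in Taf4a-/- libraries (exact two-sided permutation test, p = 0.333, the smallest it can give). The ratio of *Sgce* to *Sgca* overlapped between genotypes, at 93.8 and 70.5 against 54.5 and 84.9 (exact permutation p = 0.667). With the longest transcript as the length, the *Sgce* share was 86.9% ± 0.464 (SD) in WT and 41.1% ± 2.06 in Taf4a-/- libraries.

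**Figure D2:**
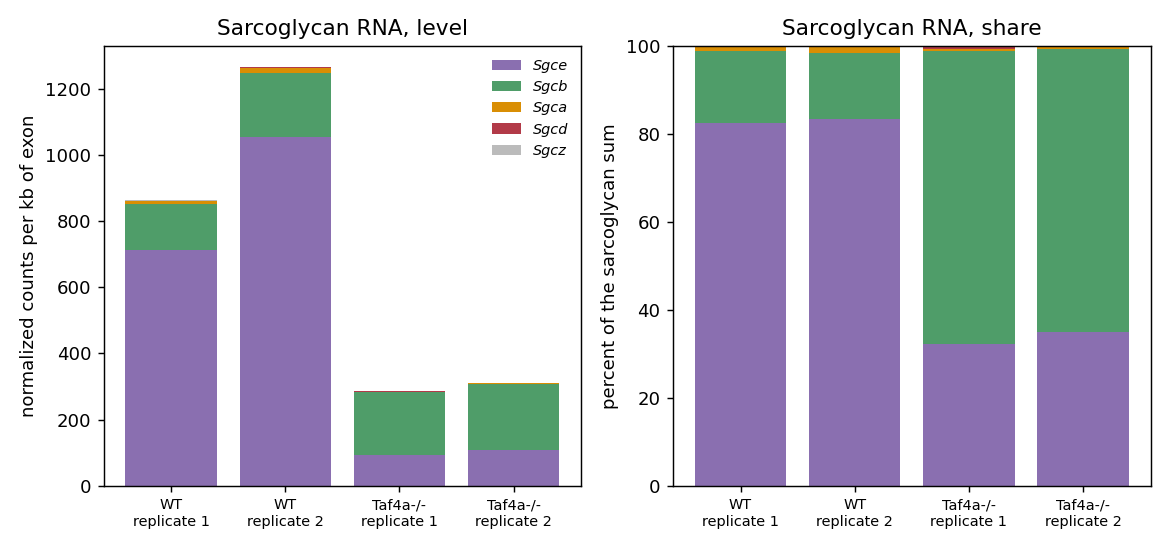
Sarcoglycan RNA in each library, as stacked normalized counts per kilobase of exon (left) and as percent of the sarcoglycan sum (right), coloured by gene. The sum is lower in both Taf4a-/- libraries (286 and 309.9 against 862 and 1266), and *Sgcb* holds 66.6% and 64.5% of it there against 16.3% and 15.1% in WT. The level of *Sgcb* itself overlaps between genotypes.

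α-Dystrobrevin, *Dtna* (ENSMUSG00000024302, chr18:23573916-23818215, plus strand), a dystrophin-related scaffold that binds syntrophins, fell moderately. Its normalized counts were 410 and 545 in WT and 266 and 281 in Taf4a-/- libraries, without overlap. The *Dtna* log2 fold change was -0.79 ± 0.20 (SE), a 1.73-fold lower level, with a 95% interval of -1.27 to -0.30 and an adjusted p of 0.0326 in limma. *Dtna* rests on far more reads than *Sgca* or *Sgcd*, but its call was lost without WT replicate 2 (adjusted p 0.0959), Taf4a-/- replicate 1 (0.126) or Taf4a-/- replicate 2 (0.0946), after quantile normalization (0.0751) and without the variance trend (0.0711), in a range of 0.0252 to 0.126 over all alternatives. β-Dystrobrevin, *Dtnb*, its relative outside muscle, stood at 765 and 734 normalized counts in WT and 730 and 649 in Taf4a-/- libraries (log2 fold change -0.12, adjusted p 0.541 in limma). Per kilobase, *Dtna* held 35.4% and 43.1% of the dystrobrevin RNA in WT and 27.1% and 30.6% in Taf4a-/- libraries. The ratio of *Dtnb* to *Dtna* did not overlap between genotypes, with means of 1.57 in WT and 2.48 in the others (exact permutation p = 0.333, the smallest possible).

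β1-Syntrophin, *Sntb1* (ENSMUSG00000060429, chr15:55470398-55738504, minus strand), is an adaptor that binds dystrophin and dystrobrevin. *Sntb1* normalized counts were 152 and 135 in WT and 106 and 73.0 in Taf4a-/- libraries, all lower than WT. The *Sntb1* log2 fold change of -0.70 ± 0.28 (SE, 95% interval -1.39 to -0.0069) had an adjusted p of 0.115 in limma and was not called. γ2-Syntrophin, *Sntg2*, fell from 71.0 and 33.2 to 10.8 and 6.64 normalized counts (log2 fold change -2.39, adjusted p 0.0226 in limma), having passed the filter only through its WT libraries, and β2-syntrophin, *Sntb2*, stood at 743 and 762 against 909 and 821 (log2 fold change 0.20, adjusted p 0.298 in limma).

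Of the 11 other subunits and relatives of the complex, 9 could be tested, with a median log2 fold change of -1.03. Of these, 4 were called lower, against 17.3% of all genes tested, and 1 higher, against 11.3%. The count and the median include *Sntg2*, which had to differ to be tested, so they support nothing about this list. Among the lower ones were *Sgce*, *Sntg2* (tested only through WT) and sarcospan, *Sspn*, a membrane protein that binds the sarcoglycans, which fell from 183 and 321 to 98.9 and 88.5 normalized counts (log2 fold change -1.37, adjusted p 0.0258 in limma). Neuronal nitric oxide synthase, *Nos1*, which syntrophin holds at the muscle membrane, moved the other way, from 50.8 and 42.6 to 147 and 137 (log2 fold change 1.59, adjusted p 0.0110 in limma). Dystrophin-related protein 2, *Drp2*, was at 71.9 and 138 against 58.7 and 39.8 and was not called (adjusted p 0.111 in limma).

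**Figure D3:**
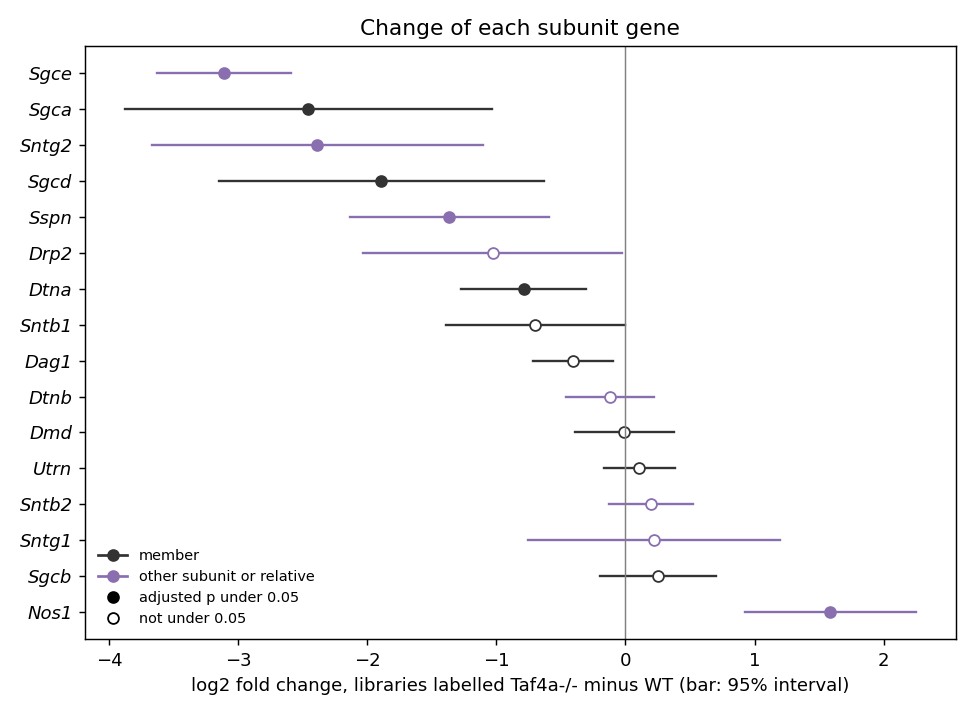
Log2 fold change, Taf4a-/- minus WT libraries, of the 8 members (dark) and of tested other subunits and relatives (purple), with 95% intervals, filled where the adjusted p was under 0.05. *Sgce* (-3.11) and *Sgca* (-2.46) lie lowest and *Nos1* (1.59) highest, and the intervals of *Dmd*, *Utrn* and *Sgcb* include 0. *Sgca*, *Sgcd* and *Sntg2* were tested only through WT.

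Of 17 listed enzymes that build the laminin-binding sugar of dystroglycan, 15 were found and tested, with a median log2 fold change of -0.13. Of these, 2 were called lower, against 17.3% of all genes tested, and 1 higher, against 11.3%. *Dpm3*, a subunit of the enzyme that makes the mannose donor, fell from 409 and 477 to 205 and 166 normalized counts (log2 fold change -1.26, adjusted p 0.00918 in limma). *Gmppb*, which makes GDP-mannose, fell from 598 and 770 to 346 and 393 (-0.88, adjusted p 0.0197), but 38.0% of its exon bases are shared with other genes, mostly *Rnf123*, so its reads are uncertain. *B3galnt2*, a transferase of the core sugar, rose from 1131 and 911 to 1463 and 1481 (0.54, adjusted p 0.0401), with 8.83% of its exon bases shared with *Tbce*. The remaining 12 were not called, among them *Pomt1* and *Pomt2*.

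Among the matrix ligands of dystroglycan, 2 of 11 were called lower, against 17.3% of all genes tested, and 0 higher, against 11.3%. The median log2 fold change of the ligands was -0.52. The laminin α2 chain, *Lama2*, the form of muscle basement membranes, fell from 337 and 356 to 89.1 and 86.3 normalized counts (log2 fold change -1.97, 3.92-fold lower, adjusted p 0.00282 in limma). Pikachurin, *Egflam*, fell from 952 and 865 to 450 and 294 (-1.32, adjusted p 0.0110). Agrin, *Agrn*, perlecan, *Hspg2*, and the laminin α5 chain, *Lama5*, had overlapping values between genotypes and were not called.

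Of 15 costamere and membrane partners, 14 were tested, with a median log2 fold change of -0.47. Of these, 3 were called lower, against 17.3% of all genes tested, and 1 higher, against 11.3%. Costameres are the sites where the outer sarcomeres of muscle attach to the membrane. *Cmya5*, a muscle protein that binds dysbindin and desmin, fell from 61.4 and 99.7 to 18.6 and 8.85 normalized counts (log2 fold change -2.51, adjusted p 0.0157 in limma). Ankyrin G, *Ank3*, fell from 1913 and 2429 to 1143 and 952 (-1.05, adjusted p 0.00876), and integrin β1, *Itgb1*, fell by 0.70 on the log2 scale (adjusted p 0.0433). The cytoskeletal linker plectin, *Plec*, rose from 3950 and 4053 to 6188 and 5316 (0.52, adjusted p 0.0284). Syncoilin, *Sync*, which binds α-dystrobrevin, stood at 29.8 and 58.2 against 15.7 and 24.3 and was not called (-1.06, adjusted p 0.147). Caveolin 3, *Cav3*, the caveolin of muscle, had 25 reads in WT and 0 in Taf4a-/- libraries, at least 3.76-fold lower against a floor of 3 reads per library, and was below the filter.

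**Figure D4:**
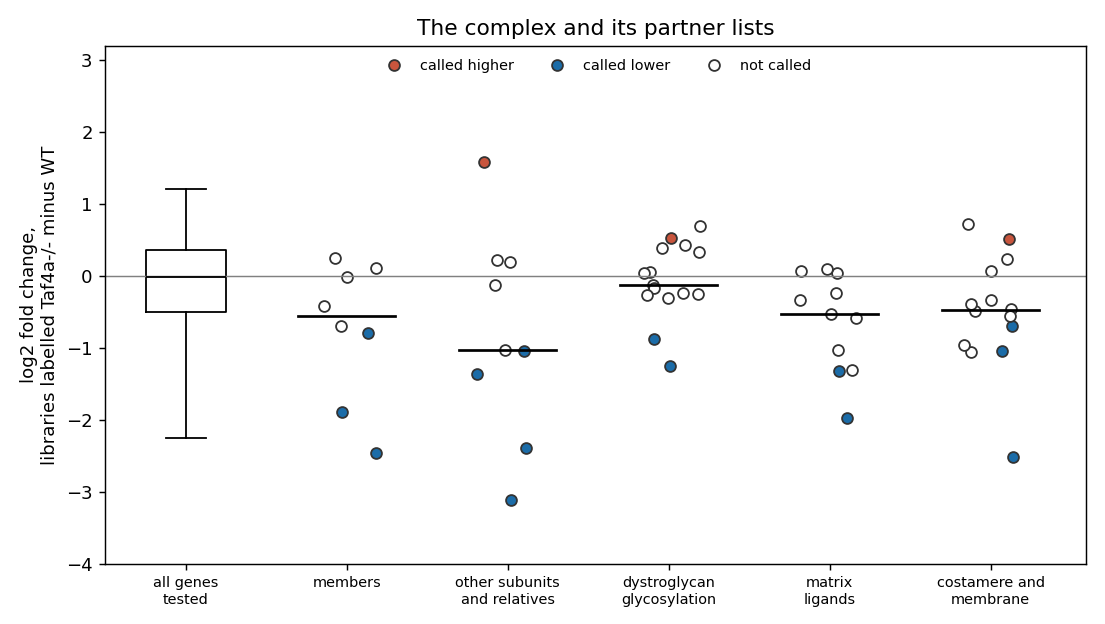
Log2 fold change, Taf4a-/- minus WT libraries, of each tested gene in the members and the 4 partner lists, with the list's median as a bar, beside all 16926 genes tested (box for the quartiles, whiskers at the 5th and 95th percentiles). The medians are -0.55 for the members, -1.03 for the other subunits, -0.13 for the glycosylation enzymes, -0.52 for the ligands and -0.47 for the costamere partners, against -0.01 for all genes. Those of the members and the other subunits include *Sgca*, *Sgcd* and *Sntg2*, tested only through WT, and support nothing about these lists.

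Over all genes tested, 17.3% were called lower and 11.3% higher. Over the 4 partner lists, 11 of 49 tested genes were called lower, among them *Sntg2*, tested only through WT, and 3 higher (median log2 fold change -0.30). Of these 14 calls, *Sgce* and *Lama2* held when any 1 library was left out. The number of the 14 that lost their call was 3 without WT replicate 1 (*Sntg2*, adjusted p 0.0690, *Egflam*, 0.0542, and *Plec*, 0.0565), 5 without Taf4a-/- replicate 1, 6 without Taf4a-/- replicate 2 and 11 without WT replicate 2. Without Taf4a-/- replicate 1 the adjusted p included 0.168 for *B3galnt2*, 0.0826 for *Gmppb*, 0.216 for *Itgb1* and 0.265 for *Plec*. Without Taf4a-/- replicate 2 they included 0.0593 for *Sspn*, 0.0518 for *Sntg2*, 0.179 for *B3galnt2*, 0.189 for *Itgb1* and 0.0908 for *Plec*. Without WT replicate 2, the adjusted p of the 11 ran from 0.0501 for *Ank3* to 0.0934 for *Cmya5*, with *Sspn* at 0.0884, *Nos1* at 0.0530, *B3galnt2* at 0.0733, *Gmppb* at 0.0710, *Dpm3* at 0.0587, *Egflam* at 0.0673, *Itgb1* at 0.0643 and *Plec* at 0.0724. Other alternatives also ended calls among these genes. With the replicate block the adjusted p was 0.0541 for *B3galnt2* and 0.0517 for *Itgb1*, with no filter it was 0.0501 for *B3galnt2*, and after quantile normalization 0.0503 for *Sspn*. Without the variance trend it was 0.0625 for *Sspn*, 0.108 for *B3galnt2*, 0.0574 for *Gmppb*, 0.103 for *Itgb1* and 0.0935 for *Plec*. None of the named partner genes changed direction in these fits.

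The tested genes with the profile nearest to each member over the 4 libraries were found by the Euclidean distance between log2(normalized count + 1) values centred on each gene's own mean. Nearest were *Ap1m1* to *Dmd* (0.0241), *Ciao1* to *Utrn* (0.0032), *Ugdh* to *Dag1* (0.0157), *Car11* to *Sgca* (0.0405), *Spnb4* to *Sgcb* (0.0298), *Casp4* to *Sgcd* (0.0502), *Itgb5* to *Dtna* (0.0221) and *Eif2c4* to *Sntb1* (0.0247). The second nearest were *Srd5a3*, *Ttc15*, *Gm4832*, *Fgf11*, *1500011K16Rik*, *Podnl1*, *Tmem64* and *Scly*, in the same order. The 4 libraries fix such a profile loosely, and among 16926 genes a near match to any shape is easily found. *Itgb5*, which encodes integrin β5, had 4064 and 5447 normalized counts in WT and 2608 and 2770 in Taf4a-/- libraries.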

How the data were processed

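Expression was measured by polyadenylated RNA sequencing with a kit that does not mark strand. Per the labels, the submitters' processing notes name CASAVA 1.8, TopHat 1.3.3, HTSeq 0.5.3p1 and DESeq, and the reads were mapped to mm9/NCBI37. The authors deposited counts per gene divided by 1 size factor per library. The annotation release and the strand setting of the counting are not given in the sources used here, so reads of overlapping genes cannot be told apart. The values are whole multiples of 1 read in each library (within 0.02 of a read), from which reads were recovered. Reads were not marked by molecule, so counting intervals and the floor of 3 reads cover counting error only.

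The log2(normalized count + 1) values of genes with a mean of at least 10 were fitted in R 4.3.3 by limma 3.58.1, using lmFit and then eBayes with its trend option, with Benjamini-Hochberg adjustment over all genes tested. Library labels gave the groups. Each of the 4 libraries is taken as its own line, in which case p-values measure the spread between lines, but the labels name no line. Gene positions and exon lengths come from GENCODE vM1 on NCBIM37, where 99.4% of the 24637 gene identifiers had the same symbol, and promoters from RefSeq on GRCm38.p6. Ratios were tested with scipy 1.17.1. The members and lists were chosen with earlier results of these data known. All members are named, and of each partner list the genes called and the 2 largest changes. As an exception, some genes of the lists are counted but not reported here by name. A few uncalled relatives (*Dtnb*, *Sntb2*, *Pomt1*, *Agrn* and the like) and genes too low to test were named after their values were seen. Pseudocounts, filters, scalings, lengths and thresholds were varied, as were the variance trend and a replicate block, and each library was left out once. The voom method of limma on the recovered reads was added after seeing the data.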

Additional observations from a re-analysis of the deposited data

How the results depend on the processing

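With 2 libraries a genotype, single libraries limit most calls. Of 102 alternative values of the members' fold changes, 83 kept direction and side of the threshold, 14 lost the call, 1 gained it and 4 changed sign, all 4 for *Dmd* (0.0493 with equal totals, 0.165 after quantile normalization, and a range of -0.0799 to 0.0593 on leaving out 1 library). A member not called in the main fit cannot lose a call. The 14 losses fell on *Sgca* (3 of 12 alternatives), *Sgcd* (6 of 12) and *Dtna* (5 of 13). Of 192 values of the named partner genes, 156 kept direction and side of the threshold and 36 lost the call. Leaving out 1 library gave 624 to 2476 genes called higher and 1222 to 3038 lower, 0 to 4 members lower and 0 higher, 1 to 3 partner genes higher and 4 to 16 lower, and a members' median of -0.61 to -0.40. Each of these fits has 1 library fewer, and the cause of the differences was not tested.

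With a mean of at least 50, *Sgca* and *Sgcd* are not tested, 1 member was lower and the members' median was -0.21. Equal totals gave 5 partner genes higher. Quantile normalization gave 1 member lower and 6 partner genes higher. It moved the median of all genes to 0.11, and its fold changes are relative to that. Without the variance trend, 856 genes were called higher and 1741 lower, with 1 partner gene higher and 7 lower. A threshold of 0.01 gave 331 genes higher and 1119 lower, 0 members lower, and 0 partner genes higher and 4 lower. A threshold of 0.1 gave 2903 genes higher and 5 partner genes higher. With the longest transcript as length, the *Utrn* to *Dmd* ratio was 19.2 in WT and 20.8 in Taf4a-/-. The cause was not tested. Voom called 1813 genes higher, 2753 lower and the same number of members, 3.

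Over the genes tested, the deviations of the replicate 1 libraries from their genotype means correlated at 0.0118. Those of replicate 2 mirror them, so this single value cannot show whether replicate numbers pair the lines. With the replicate block, 1536 genes were higher and 2657 lower, and 2 members lower, *Sgcd* losing its call (adjusted p 0.0645). Of the partner genes, *B3galnt2* (0.0541) and *Itgb1* (0.0517) lost theirs. The edgeR and DESeq2 alternatives were not run, because the table's decimal commas kept its values from being checked as counts, and voom on the recovered reads took their place.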
